A study of Rattus norvegicus with 48 samples.

Results

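4 mature miRNAs that are known for their abundance in red blood cells, rno-miR-451-5p, rno-miR-144-5p, rno-miR-144-3p and rno-miR-486, were followed through liver small RNA of rats given thioacetamide (TAA), a compound that injures the liver. They were chosen by name, as 4 of the 764 mature miRNAs listed and of the 664 with a read, and all 4 were among the 301 that passed the filter on low counts. Liver RNA was sequenced from 48 male Sprague-Dawley rats, 3 in each of 16 groups, and the unit used here is RPM, the reads of a miRNA per 1000000 reads counted on miRNAs in that library. The treated rats received TAA once a day at a low (4.5 mg/kg), middle (15 mg/kg) or high (45 mg/kg) dose for 3, 7, 14 or 28 days, each time point had its own vehicle controls at 0 mg/kg, and livers were taken the day after the last dose. The age of the rats is not given in the sources used here, nor is whether blood was rinsed from the liver before RNA was extracted from the tissue.

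Developing red blood cells switch on the gene that carries miR-144 and miR-451 together under the factor GATA1, and mature red blood cells, which have lost their nucleus, keep much of these miRNAs. miR-451 is unusual because its short hairpin bypasses Dicer and is cut by the slicer Argonaute 2, whereas miR-144 is made by Dicer in the usual way. miR-486 comes from another locus, within the ankyrin gene Ank1, and is also abundant in skeletal and heart muscle.

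The sequences show that 3 of the members come from a single short stretch of the genome. The mature forms are given as RefSeq lists them in GRCr8, 5′ to 3′, with the seed (bases 2 to 8, which pair with targets) in capitals.
miR-451-5p: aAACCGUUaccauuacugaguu
miR-144-5p: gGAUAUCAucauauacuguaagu
miR-144-3p: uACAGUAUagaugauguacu

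None of the other mature miRNAs among the 693 in the RefSeq table shares any of these seeds. miR-451-5p (22 bases) lies at chr10:63459585-63459606, miR-144-5p (23 bases) at chr10:63459409-63459431 and miR-144-3p (20 bases) at chr10:63459446-63459465, all on the plus strand. The precursor hairpins show where the mature forms sit, with these forms in capitals.
Mir144: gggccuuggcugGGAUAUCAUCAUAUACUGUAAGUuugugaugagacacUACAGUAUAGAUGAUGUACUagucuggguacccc
Mir451a: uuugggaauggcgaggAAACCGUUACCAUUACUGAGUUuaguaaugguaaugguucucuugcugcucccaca

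The Mir144 hairpin (chr10:63459397-63459479, 83 bases) and the Mir451a hairpin (chr10:63459569-63459640, 72 bases) are 89 bases apart. Both arms of Mir144 were measured as members. The other arm of the miR-451 hairpin, miR-451-3p, had between 0 and 11 reads per library and was not tested. G and C make up 36.4% of miR-451-5p, 30.4% of miR-144-5p and 30% of miR-144-3p.

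Library totals were between 293331 and 14906217 reads (median 10237542). The library of control 3-d replicate 1 stood apart from the rest, with 293331 reads against 4829217 or more in the other 47. In it, 3 reads correspond to 10.2 RPM, against 0.201 to 0.621 RPM elsewhere, a limit that covers counting error only. It held 38 reads of miR-451-5p, 12 of miR-144-5p and 4 of miR-144-3p but 28716 reads of miR-486, which was 97896 RPM, or 9.79% of the library. Across the 267 other tested miRNAs with a sequence, the deviation of this library from the median library rose by 1.24 log2 units for each 10% more G and C, against slopes between -0.15 and 0.37 in the other 47 libraries. Results that rest on this library are given with and without it. The liver miRNA miR-122-5p was at 22336 to 62120 RPM in the 47 libraries.

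Over those 47 libraries miR-486 ranked 28 by mean RPM among the 664 miRNAs with a read, miR-451-5p ranked 95, miR-144-3p 150 and miR-144-5p 170. The lowest counts in these libraries were 11129 reads for miR-486, 1165 for miR-451-5p, 177 for miR-144-3p and 170 for miR-144-5p.

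**Figure D1:**
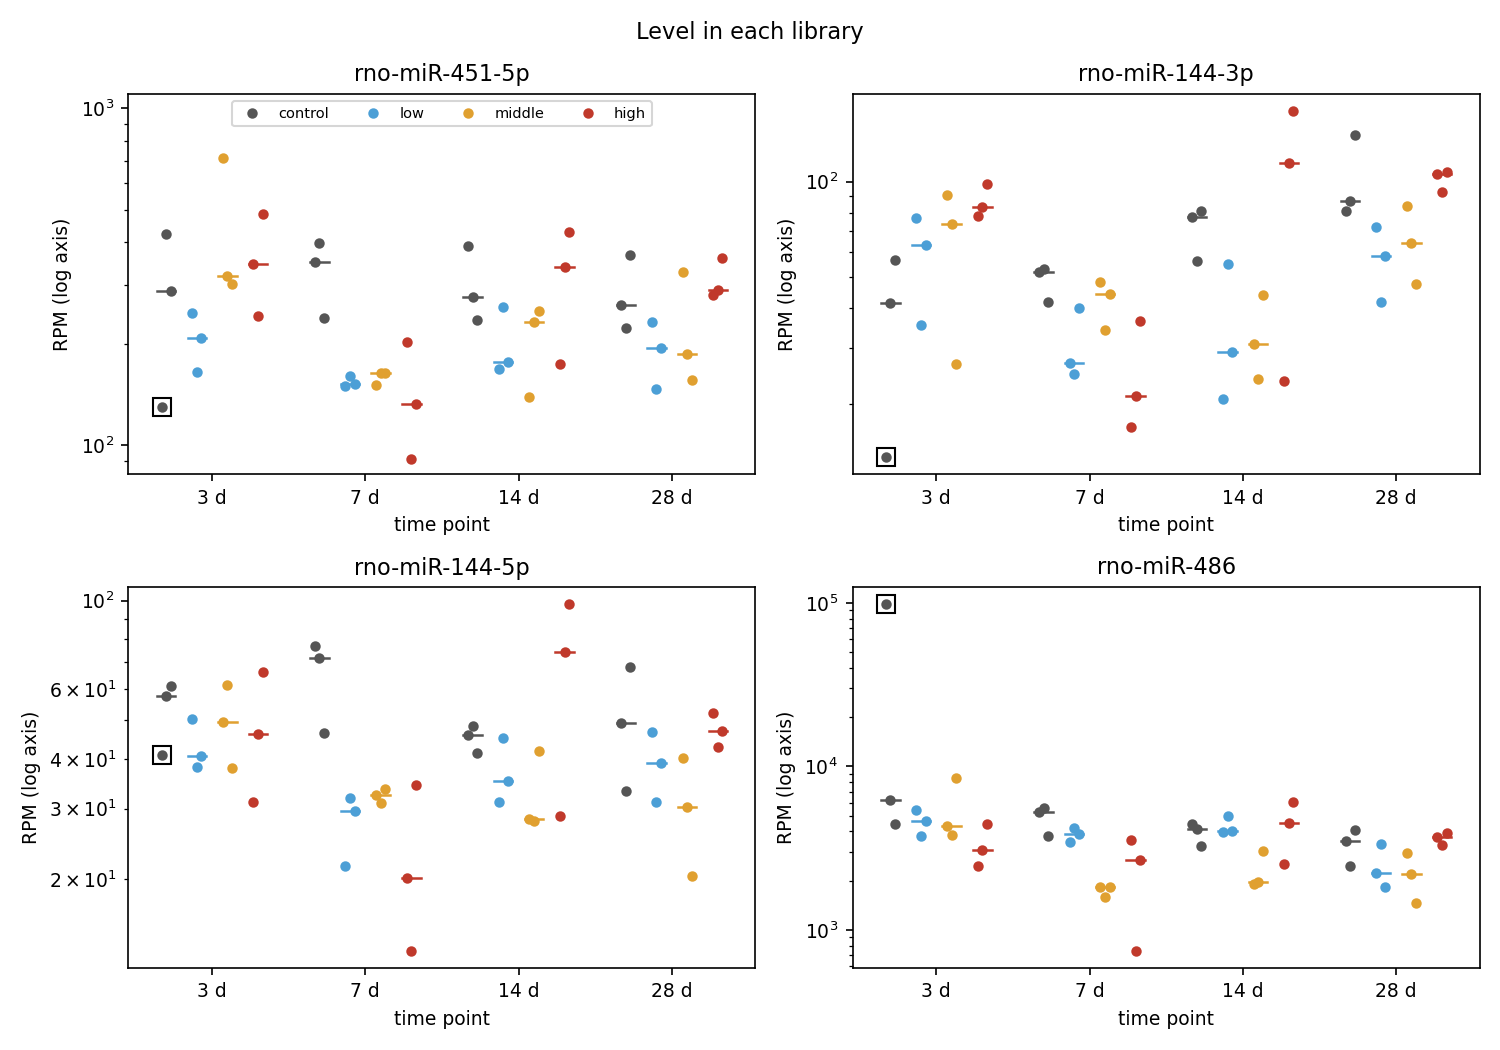
RPM (log axis) of each member in each library by time point, 3 points per group with the median as a bar, coloured by dose. Control 3-d replicate 1 is boxed, and it sits lowest for miR-144-3p (13.6 RPM) and highest for miR-486 (97896 RPM), while at 7 d the treated points of miR-451-5p and miR-144-5p all lie below the controls.

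The first question was whether the members changed against the controls of the same time point. A member was called changed at an unadjusted p-value below 0.05 with a fold change above 1.5 in edgeR's quasi-likelihood test, the thresholds of the study. The 3 doses of a time point share the same 3 controls, so their calls are not independent. Nor are the calls of different members, most of which varied together within groups, as given below. Of the 48 pairs of a member and a condition, 20 were called lower, where 5.98% of all pairs of a tested miRNA and a condition were called lower, and 1 was called higher, where 12.1% were. At a Benjamini-Hochberg adjusted p-value below 0.05, 15 were called, all lower, against 3.43% of all pairs. With all 48 libraries, every treated rat was below every control in 14 pairs, which held for 11.8% of all pairs. Each member was called lower in 5 of the 12 conditions. Leaving out control 3-d replicate 1 ended 2 of the calls of miR-486, at 3-d, so that it was called lower in 3 conditions and the pairs called lower numbered 18, where 5.95% of all pairs were. In bulk liver RNA, fewer cells of a type and less RNA per cell cannot be told apart.

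After 7 days miR-451-5p and miR-144-5p fell at every dose, miR-486 at middle dose and miR-144-3p at high dose. miR-451-5p was at 349, 398 and 238 RPM in the controls, 150, 161 and 152 at low dose, 151, 164 and 164 at middle dose and 202, 90.9 and 133 at high dose. All 9 treated rats were below the lowest control. The log2 fold changes were -0.98 (standard error 0.20), -1.15 (0.20) and -1.29 (0.34) from low to high dose, with edgeR adjusted p-values of 0.00467, 0.00359 and 0.0441. At middle dose this was 0.450 of the control level.

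miR-144-5p, the 5′ arm of the neighbouring hairpin, was at 76.7, 71.6 and 46.4 RPM in the 7-d controls, 21.6, 32 and 29.6 at low dose, 32.5, 31 and 33.7 at middle dose and 20.1, 13.2 and 34.3 at high dose. Again the 9 treated rats were all below the lowest control. Its log2 fold changes were -1.11 (0.24), -1.11 (0.20) and -1.59 (0.40), with edgeR adjusted p-values of 0.00629, 0.00413 and 0.0400. miR-144-3p, the 3′ arm of that hairpin, was at 52, 53 and 42 RPM in the controls, 26.9, 24.9 and 40.1 at low dose, 48.6, 34.2 and 44.2 at middle dose and 16.9, 21.3 and 36.4 at high dose. The low and high dose rats were below the controls and the middle dose rats overlapped with them. It was called lower at high dose (-1.04, 0.33), where the edgeR adjusted p-value was 0.0838, but not at low dose (-0.56, 0.23), where the fold change missed the threshold, nor at middle dose (-0.32, 0.16). The high dose call was lost without control 7-d replicate 5 (-0.93).

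miR-486, from the other locus, was at 5229, 5563 and 3734 RPM in the 7-d controls, 3438, 4209 and 3845 at low dose, 1819, 1582 and 1829 at middle dose and 3529, 747 and 2662 at high dose. The middle dose rats formed a tight group below the controls, the high dose rats were spread widely and also below them, and the low dose rats overlapped with the controls. At middle dose the log2 fold change was -1.59 (0.16), 0.333 of the control level, with an edgeR adjusted p-value of 2.17e-04. It was -1.13 (0.51) at high dose and -0.23 (0.17) at low dose, neither of which was called. At low dose, where miR-451-5p and miR-144-5p had fallen, the 95% interval of the miR-486 change ran from -0.62 to 0.16.

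Counted together at 7-d, 2 of the 4 members were called lower at low dose (10.6% of the 301 tested), 3 of 4 at middle dose (3.99%) and 3 of 4 at high dose (3.32%). Treated and control rats did not overlap for 3, 3 and 4 members from low to high dose, against 30.9%, 13.3% and 9.3% of the tested miRNAs with all treated rats below. The median log2 fold change of the 4 members was -0.77, -1.13 and -1.21, and that of all tested miRNAs 0.02, -0.02 and 0.14.

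After 14 days all 4 members fell at middle dose. miR-451-5p was at 391, 276 and 235 RPM in the controls, 169, 258 and 176 at low dose, 139, 233 and 250 at middle dose and 175, 339 and 431 at high dose. miR-144-5p was at 46, 48.3 and 41.5 RPM in the controls, 31.2, 45.1 and 35.1 at low dose, 28.3, 28 and 42 at middle dose and 28.8, 74.3 and 97.8 at high dose. For both, 1 middle dose rat reached into the range of the controls, and 2 of the 3 high dose rats lay in or above that range.

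The 3′ arm of the Mir144 hairpin, miR-144-3p, was at 77.3, 56.1 and 80.7 RPM in the 14-d controls, 20.7, 55.2 and 29.2 at low dose, 30.9, 23.9 and 43.9 at middle dose and 23.7, 114 and 167 at high dose. The low and middle dose rats were all below the controls, while the high dose rats held both a value below all controls and 2 values above them, 1 of which (167 RPM) was the highest of the member in any library. miR-486 was at 4420, 4111 and 3238 RPM in the controls, 3951, 4943 and 4013 at low dose, 1903, 1966 and 3015 at middle dose and 2539, 4505 and 6013 at high dose. Only its middle dose rats were all below the controls.

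All 4 members were called lower at the middle dose of 14-d, against 5.32% of the tested miRNAs. The log2 fold changes were -0.72 (0.22) for miR-451-5p, -0.64 (0.19) for miR-144-5p, -1.29 (0.25) for miR-144-3p and -0.94 (0.17) for miR-486, with edgeR adjusted p-values of 0.0465, 0.0330, 0.00320 and 0.00314. The call of miR-451-5p was lost without control 14-d replicate 13 (-0.48) or middle 14-d replicate 31 (-0.53), where the fold change missed the threshold, and that of miR-144-5p without middle 14-d replicate 31 (-0.58) or 32 (-0.51). At low dose 1 member was called lower, miR-144-3p (-0.91, 0.29, edgeR adjusted p = 0.0287), against 9.63% of the tested miRNAs, and this was lost without control 14-d replicate 15 (-0.78) or low 14-d replicate 42 (-0.82), while miR-486 was at 0.28 (0.13) and was not called. None was called lower at high dose, against 3.65%. Groups did not overlap for 1 member at low dose and 2 at middle dose, against 27.6% and 9.3% of the tested miRNAs.

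The 14-d high dose rats were far apart from each other. In replicate 7 the members were at 175, 28.8, 23.7 and 2539 RPM, in the order miR-451-5p, miR-144-5p, miR-144-3p and miR-486, and in replicate 9 at 431, 97.8, 167 and 6013. The SD of miR-144-3p was 71.4% of its mean there and that of miR-144-5p 52.4%, against 18.6% and 7.7% in the 14-d controls. The 95% interval of the high dose change ran from -1.01 to 1.61 for miR-144-3p.

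After 28 days members fell at low and middle dose and none was called at high dose. miR-451-5p was at 260, 222 and 368 RPM in the controls, 232, 147 and 195 at low dose, 328, 187 and 156 at middle dose and 280, 290 and 361 at high dose. miR-144-5p was at 49.3, 33.2 and 68 RPM in the controls, 46.8, 31.2 and 39.1 at low dose, 40.3, 30.3 and 20.4 at middle dose and 52.1, 42.9 and 47.1 at high dose. Every treated group of both overlapped with the controls.

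miR-144-3p was at 80.8, 87.2 and 140 RPM in the 28-d controls, 71.9, 42 and 58.5 at low dose, 84, 64.1 and 47.7 at middle dose and 105, 92.6 and 107 at high dose. Its low dose rats were all below the controls. miR-486 was at 3471, 2443 and 4066 RPM in the controls, 2222, 3362 and 1823 at low dose, 2942, 2199 and 1453 at middle dose and 3698, 3308 and 3906 at high dose, and each treated group of it overlapped with the controls.

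At the 28-d low dose, miR-451-5p (-0.79, 0.26) and miR-144-3p (-1.06, 0.27) were called lower, 2 of 4 members against 8.64% of the tested miRNAs, but with edgeR adjusted p-values of 0.249 and 0.151. At middle dose 3 of 4 were called lower against 12% of the tested miRNAs, namely miR-144-5p (-0.999, 0.32), miR-144-3p (-0.92, 0.28) and miR-486 (-0.87, 0.29), with edgeR adjusted p-values of 0.0331, 0.0264 and 0.0382. miR-451-5p was at -0.62 (0.31) there. Without control 28-d replicate 18, which had the highest control value of each member, the calls of miR-451-5p at low dose (-0.55) and of miR-144-5p (-0.72) and miR-486 (-0.70) at middle dose were lost. That of miR-451-5p was also lost without low 28-d replicate 30 (-0.76). None was called lower at high dose, against 2.33%, and the 95% intervals were -0.45 to 0.56 for miR-451-5p, -0.73 to 0.41 for miR-144-5p, -0.58 to 0.41 for miR-144-3p and -0.41 to 0.50 for miR-486. Groups without overlap numbered 1 at low dose, against 6.98% of the tested miRNAs.

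After 3 days the picture rested on control 3-d replicate 1, whose value is given first among the controls. miR-451-5p was at 130, 423 and 287 RPM in the controls, 247, 165 and 208 at low dose, 713, 318 and 301 at middle dose and 345, 241 and 486 at high dose. miR-144-5p was at 40.9, 57.5 and 61.2 RPM in the controls, 50.3, 38.1 and 40.7 at low dose, 49.6, 61.3 and 38 at middle dose and 31.2, 46.3 and 66.3 at high dose. Treated and control rats overlapped in each of these groups, and neither member was called at any dose with or without that library. At low dose the overlap of both came only through control 3-d replicate 1, as the other controls were above all treated rats. Without it the low dose changes were -0.62 (0.26) for miR-451-5p and -0.29 (0.17) for miR-144-5p, with edgeR adjusted p-values of 0.124 and 0.244. How many of all tested miRNAs lost their overlap in this way was not counted. At low dose none of the 4 members was called lower, against 6.64% of the tested miRNAs.

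miR-144-3p was at 13.6, 41.7 and 56.7 RPM in the 3-d controls, 77.1, 35.5 and 63.4 at low dose, 90.8, 73.5 and 26.8 at middle dose and 78.1, 83.3 and 98.6 at high dose. The high dose rats were all above the controls, which held for 9.97% of the tested miRNAs, and this was the 1 case in which a member was called higher, against 6.98%. Its log2 fold change was 1.25 (0.53), with an edgeR adjusted p-value of 0.400, and 0.91 (0.30) without control 3-d replicate 1, with an edgeR adjusted p-value of 0.391 and 7.31% of the tested miRNAs called higher. The call was lost without control 3-d replicate 2 (1.36) or any of the high dose rats (1.02 to 1.37). miR-486 was at 97896, 6202 and 4439 RPM in the controls, 5372, 3729 and 4604 at low dose, 4340, 3793 and 8429 at middle dose and 2448, 3078 and 4466 at high dose. It was called lower at middle dose (-2.51, 1.09) and at high dose (-3.15, 1.10), 1 of 4 members each against 1.33% and 4.32% of the tested miRNAs, with edgeR adjusted p-values of 0.856 and 0.400. These values were 0.05 (0.42) and -0.59 (0.37) without control 3-d replicate 1, and neither was called. The middle dose call was also lost without any of the middle dose rats (-3.08 to -2.26). That at high dose was lost without high 3-d replicate 22 (-2.93) or 23 (-3.01).

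**Figure D2:**
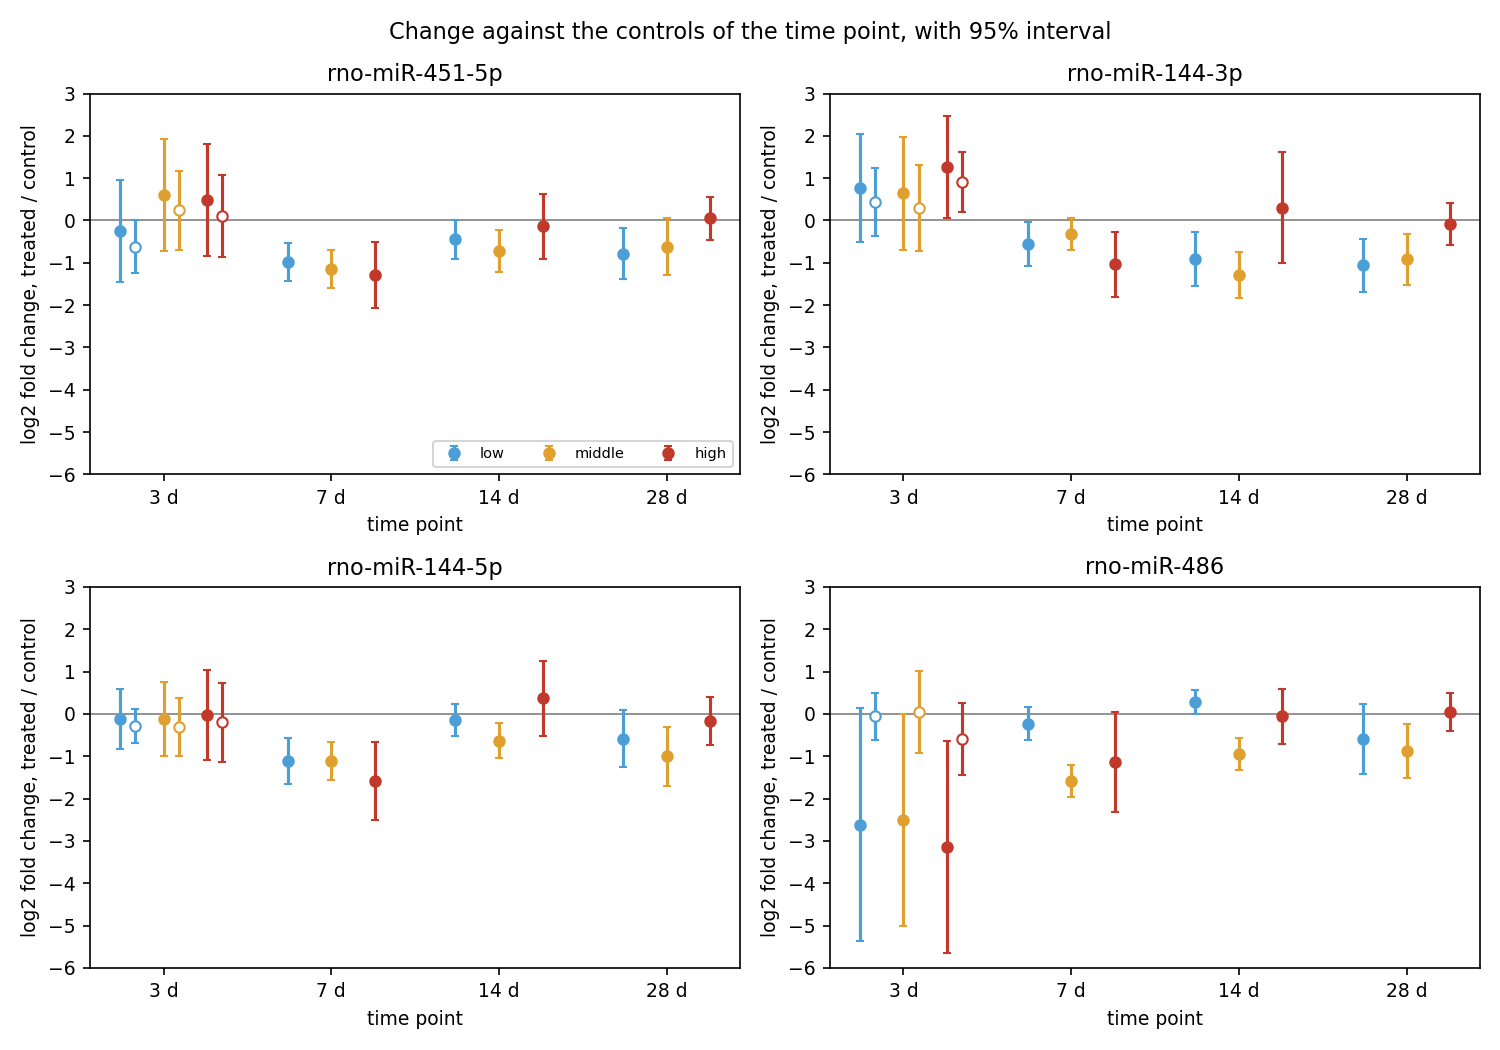
Log2 fold change of each member against the controls of its time point with the 95% interval, by dose and time point. Open points at 3 d leave out control 3-d replicate 1, which moves miR-486 at high dose from -3.15 to -0.59, and the 7 d changes of miR-451-5p and miR-144-5p lie below 0 at all doses.

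The second question was what each dose did on average over the 4 time points, which uses 12 treated and 12 control rats in a fit of all libraries. Adjusted p-values below 0.05 over all 301 tested miRNAs were called. With the 48 libraries, 3 of 4 members were called lower at low dose (21.3% of the tested miRNAs), 3 of 4 at middle dose (13.3%) and 1 of 4 at high dose (6.64%). Without control 3-d replicate 1, the counts were 3 of 4 (22.3%), 4 of 4 (17.3%) and 0 of 4 (7.64%).

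miR-451-5p fell by 0.63 (standard error 0.19) on the log2 scale at low dose and by 0.48 (0.19) at middle dose, with edgeR adjusted p-values of 0.00675 and 0.0475. The middle dose call was lost in 29 of the 48 fits that left out a library, with values between -0.58 and -0.35 over the 48. The high dose value was -0.23, with a 95% interval of -0.62 to 0.15. miR-144-5p fell by 0.50 (0.18) at low dose and by 0.73 (0.18) at middle dose, with edgeR adjusted p-values of 0.0187 and 0.00171, and was at -0.36 (0.18) at high dose. Both members had their smallest mean change at the largest dose, which is not by itself a test between doses.

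miR-144-3p had mean changes of -0.46 (0.23), -0.50 (0.23) and 0.08 (0.23) from low to high dose, with edgeR adjusted p-values of 0.0892, 0.0844 and 0.834. Without control 3-d replicate 1, where this member had 4 reads, they were -0.52 (0.22), -0.56 (0.22) and 0.02 (0.22), and the edgeR adjusted p-values of 0.0470 and 0.0401 at low and middle dose passed the threshold. With the 3-d time point left out, they were -0.84, -0.85 and -0.27.

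miR-486 had mean changes of -0.79 (0.30), -1.48 (0.30) and -1.07 (0.30), with edgeR adjusted p-values of 0.0254, 2.80e-04 and 0.00691. Without control 3-d replicate 1, they were -0.15 (0.20), -0.84 (0.20) and -0.43 (0.20), with edgeR adjusted p-values of 0.533, 0.00145 and 0.10. The middle dose was thus called either way, and the low and high dose calls rested on that library.

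**Figure D3:**
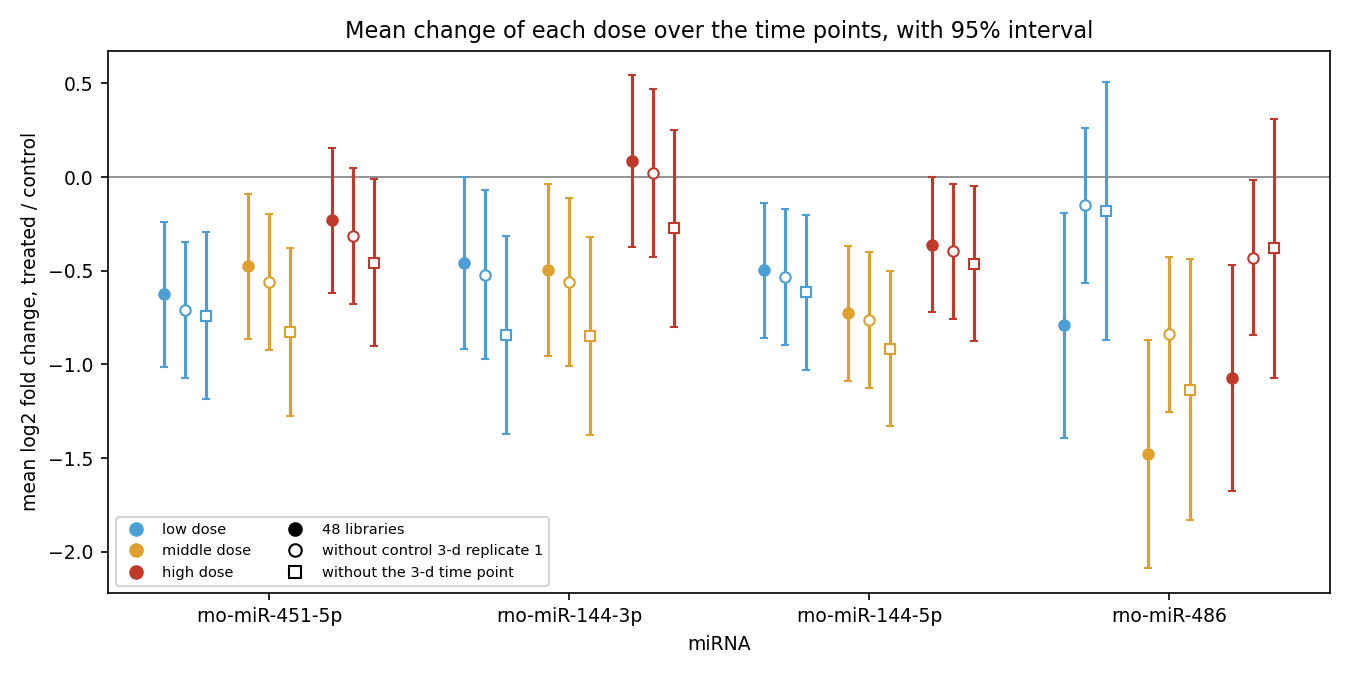
Mean log2 fold change of each dose over the time points with its 95% interval, for all 48 libraries, without control 3-d replicate 1 and without the 3-d time point. The middle dose of miR-486 stays below 0 in each (-1.48, -0.84 and -1.13), whereas its low dose goes from -0.79 to -0.15 once that library is left out.

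The third question was whether doses differed from each other. Of 48 direct comparisons between doses at a time point (each of the 4 members), 1 was called, against 10.9% over all tested miRNAs, and 9 had an unadjusted p-value below 0.05. miR-144-3p at 14-d was higher at high than at middle dose by 1.60 (0.46), with an edgeR adjusted p-value of 0.0264, against 0.997% of the tested miRNAs called higher in that comparison. It was 1.02 without high 14-d replicate 9, and the call was lost there and without high 14-d replicate 8 (1.5), middle 14-d replicate 31 (1.60) or middle 14-d replicate 32 (1.39). Leaving out control 3-d replicate 1, which enters only through the shared estimate of spread, 4 were called, against 17.6% over all tested miRNAs. The high dose of miR-144-3p at 14-d was then also above the low dose by 1.21 (0.44, edgeR adjusted p = 0.0348, 5.98% called higher). miR-486 was lower at middle than at low dose, with log2 differences of -1.36 (0.40) at 7-d and -1.22 (0.40) at 14-d, with edgeR adjusted p-values of 0.00804 and 0.0176, against 18.9% and 21.3% of the tested miRNAs called lower.

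The fourth question was whether a treatment effect changed with time. Of 72 comparisons, 6 were called with 48 libraries, against 3.78% over all tested miRNAs, and 1 without control 3-d replicate 1, against 1.92%. The 1 called in both was the high dose of miR-144-5p, whose effect at 14-d was above that at 7-d by 1.95 (0.50), with edgeR adjusted p-values of 0.0110 and, without that library, 0.00723. It was 1.56 and not called without high 14-d replicate 9. In that comparison 1.33% and 1.66% of the tested miRNAs were called higher. The rats behind it were at 20.1, 13.2 and 34.3 RPM at 7-d and at 28.8, 74.3 and 97.8 RPM at 14-d.

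The controls themselves were compared over time, where 4 of 24 comparisons were called, against 13% over all tested miRNAs, and 1 without control 3-d replicate 1, against 6.31%. Their miR-451-5p values differed by at most 0.25 on the log2 scale between time points. miR-144-3p rose from the controls of 3-d to those of 28-d by 1.55 (0.47), with an edgeR adjusted p-value of 0.00919, in a comparison where 16.9% of the tested miRNAs were called higher. With control 3-d replicate 1 left out the rise was 1.3 (0.50) with an edgeR adjusted p-value of 0.0649, and without control 28-d replicate 18 it was 1.25 and also not called. The rise of miR-144-3p from 7-d to 28-d was not called with all 48 libraries. In the fit without control 3-d replicate 1 it was 1.27 (0.44), with an edgeR adjusted p-value of 0.0487 (6.98% called higher). The 7-d control rats (42 to 53 RPM) were all below those of 28-d (80.8 to 140 RPM). How many of all tested miRNAs were apart in this way between these controls was not counted. miR-486 was lower in the controls of 7-d, 14-d and 28-d than in those of 3-d, with log2 differences of -2.68, -2.85 and -3.01 and edgeR adjusted p-values of 0.00326, 0.00146 and 8.02e-04 (10.3%, 13.6% and 22.6% called lower), and none of these was called without control 3-d replicate 1.

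The ratio of 2 members within a library does not depend on its depth or on how libraries are scaled. The log2 ratio of miR-486 to miR-451-5p reads was 9.54, 3.87 and 3.95 in the 3-d controls and 4.44, 4.50 and 4.47 in the 3-d low dose rats. At 7-d it was 3.90, 3.81 and 3.97 in the controls and 4.51, 4.71 and 4.66 at low dose, and at 14-d 3.50, 3.90 and 3.78 in the controls and 4.55, 4.26 and 4.51 at low dose. Apart from control 3-d replicate 1, the low dose rats of these 3 time points were all above the controls.

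At 28-d the ratio was 3.74, 3.46 and 3.46 in the controls and 3.26, 4.51 and 3.22 at low dose, where the groups overlapped. Over the 4 time points and without control 3-d replicate 1, the mean log2 ratio was higher at low dose by 0.53 (permutation test within time points, two-sided, p = 0.0007, adjusted p = 0.0063 over 9 ratios and doses). The differences were -0.30 at middle dose and -0.17 at high dose, with permutation p-values of 0.154 and 0.277. With all 48 libraries the low dose difference was 0.06 (permutation p = 0.992), and none of the 9 tests passed an adjusted p-value of 0.05.

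**Figure D4:**
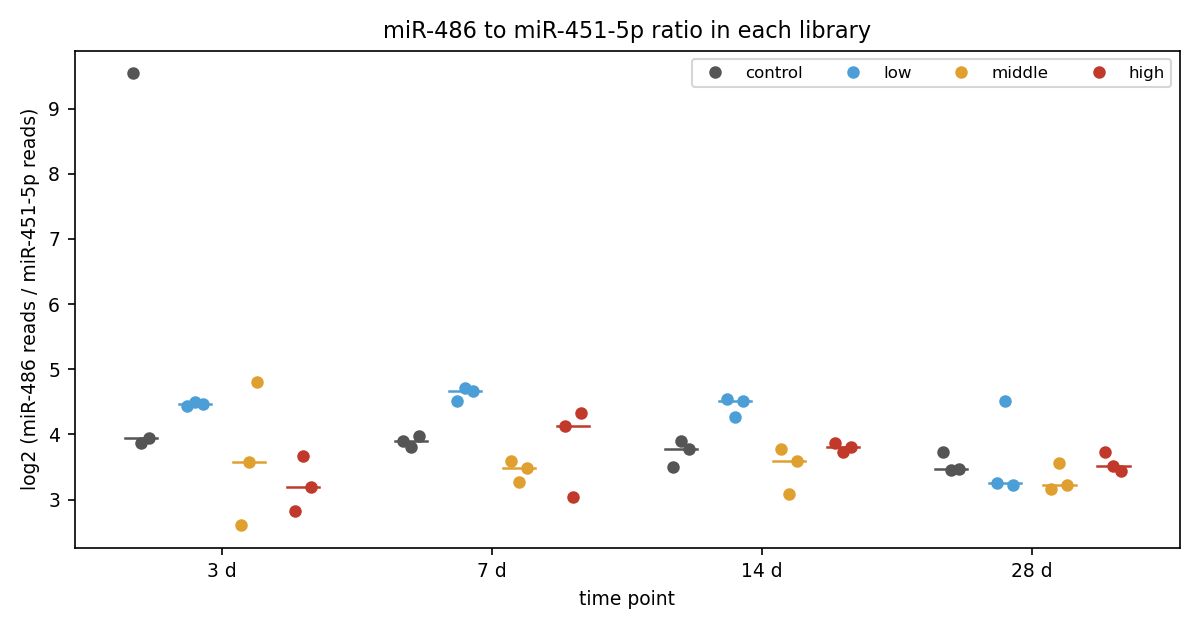
Log2 ratio of miR-486 to miR-451-5p reads in each library by time point and dose, with the group median as a bar. The low dose libraries sit between 4.26 and 4.71 at 3, 7 and 14 d, above all controls of those time points except control 3-d replicate 1 at 9.54.

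The arms of Mir144 come from the same hairpin. The log2 ratio of miR-144-5p to miR-144-3p was 0.56, 0.43 and 0.14 in the 7-d controls and -0.71, -1.39 and -1.04 in the 28-d controls, groups that did not overlap. Ratios were not tested between the controls of different time points. Against the controls of the time point, and without control 3-d replicate 1, the low dose log2 ratio differed by -0.67, -0.51, 0.83 and 0.51 from the first to the last time point, and the high dose ratio by -1.20, -0.55, 0.27 and -0.05. The means over the time points were 0.04 at low, -0.17 at middle and -0.38 at high dose (permutation p = 0.845, 0.396 and 0.0729). With all 48 libraries the high dose mean was -0.48 (permutation p = 0.0451, adjusted p = 0.203 over 9 ratios and doses). The ratio of miR-451-5p to miR-144-3p had mean differences of -0.13, 0.02 and -0.26 from low to high dose, with permutation p-values of 0.560, 0.924 and 0.271.

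Rats of the same group varied together in the members. After subtracting the group mean, the correlation over 47 libraries was r = 0.77 (Spearman's rho 0.75) between both arms of Mir144, with a permutation p of 1e-05, the smallest that 100000 permutations can give, and an adjusted p of 0.0001 over 10 relations. Without the 2 libraries farthest from the median it was 0.67. miR-451-5p and miR-144-5p, from neighbouring hairpins, had r = 0.68 (rho 0.64, adjusted permutation p = 0.00303), and miR-451-5p and miR-144-3p r = 0.60 (rho 0.56, adjusted permutation p = 0.00372).

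miR-486, from the other locus, was correlated within groups with miR-451-5p (r = 0.64, rho 0.66, adjusted permutation p = 0.00372) and with miR-144-5p (r = 0.69, rho 0.65, adjusted permutation p = 0.00235). Without the 2 farthest libraries these were 0.58 and 0.65. With miR-144-3p it had r = 0.32 (rho 0.36, adjusted permutation p = 0.224). With all 48 libraries r was 0.03, 0.29 and -0.12, none of which passed, and rho was 0.40, 0.48 and 0.18, of which that with miR-144-5p passed (adjusted permutation p = 0.0579, 0.021 and 0.388).

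**Figure D5:**
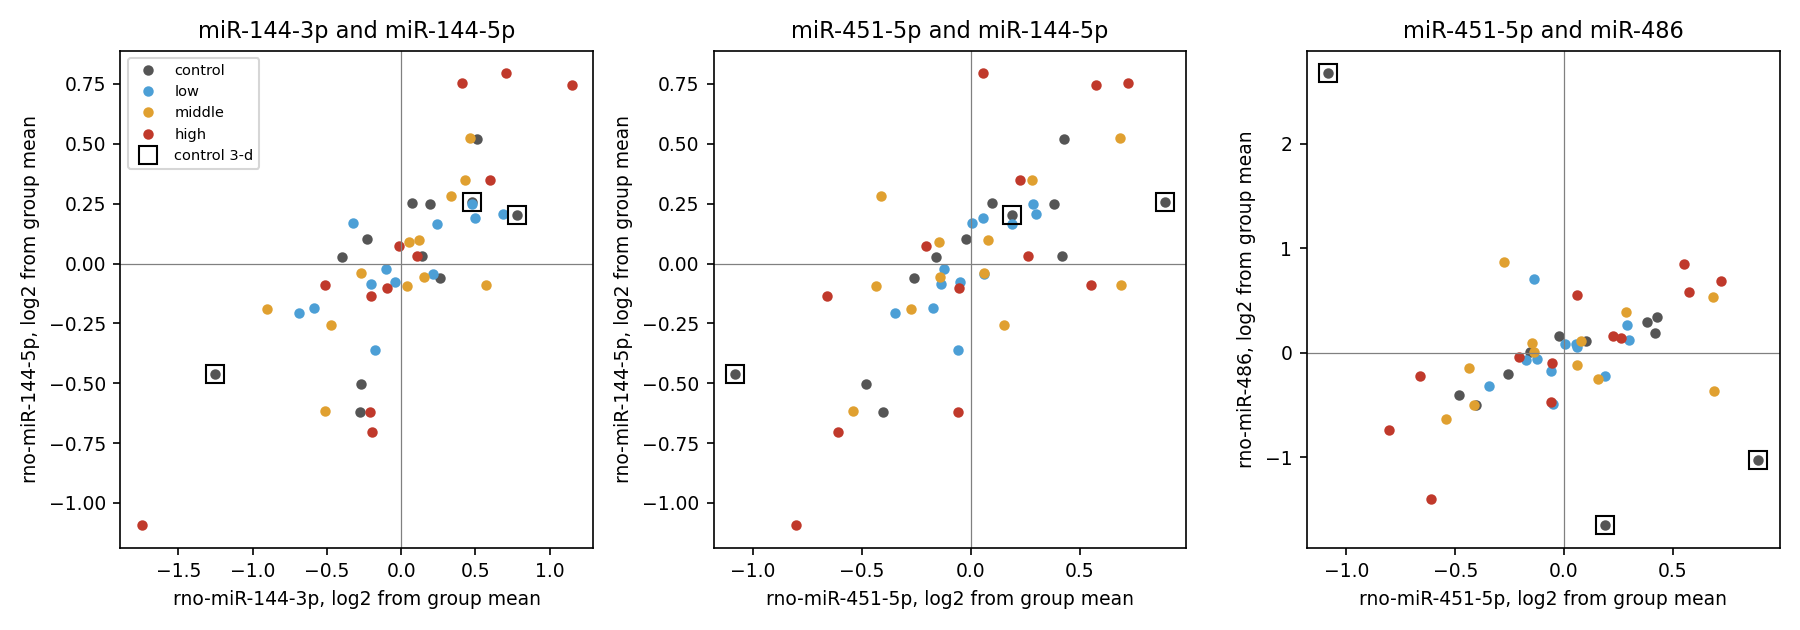
Deviation of each of 48 libraries from its group mean (log2 normalized RPM) for 3 pairs of members, with the 3-d controls boxed. The arms of miR-144 rise together (r = 0.78), and for miR-451-5p and miR-486 the boxed points run against the trend of the others (r = 0.03 with and 0.64 without control 3-d replicate 1).

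The base composition slope of a library, as defined above, moved with miR-144-3p within groups (r = -0.59, rho -0.58, adjusted permutation p = 0.0077, 47 libraries). For miR-451-5p, miR-144-5p and miR-486 r was -0.12, -0.25 and 0.34, none of which passed an adjusted p-value of 0.05. With all 48 libraries and the slope as a covariate, the mean change of miR-144-3p was -0.79, -0.70 and -0.19 from low to high dose. That of miR-486 was 0.10 at low dose and -0.29 at high dose. In middle 3-d replicate 12, the library with the slope of 0.37, miR-486 was at 8429 RPM and miR-144-3p at 26.8 RPM, the highest and the lowest of that group.

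Other miRNAs that red blood cells hold in quantity, but that many other cells also express, moved in both directions. Of 7 such miRNAs (miR-16-5p, miR-15b-5p, miR-92a-3p, miR-25-3p, miR-93-5p, miR-185-5p and miR-363-3p), all tested, the mean effect over time points was called higher for 3 and lower for 2 at low dose (28.6% and 21.3% of all tested miRNAs), higher for 3 at middle dose (23.3%) and higher for 3 and lower for 1 at high dose (21.6% and 6.64%). Those called higher at each dose were miR-25-3p, miR-93-5p and miR-185-5p. These counts were the same without control 3-d replicate 1, but for miR-92a-3p at high dose, which was then not called. Their summed level was 15745 to 31241 RPM in 11 controls, 103743 RPM in control 3-d replicate 1, 16793 to 28185 at low dose, 24110 to 37256 at middle dose and 17970 to 30750 at high dose.

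Leukocytes also arrive with blood. Of 5 leukocyte miRNAs (miR-142-3p, miR-142-5p, miR-223-3p, miR-150-5p and miR-342-3p), 3 were called lower at low dose, against 21.3% of all tested miRNAs (4 without control 3-d replicate 1, against 22.3%), and 1 each at middle and high dose, against 13.3% and 6.64%. The 1 called at every dose was miR-150-5p, a lymphocyte miRNA, with mean changes of -1.08, -0.45 and -0.65 and edgeR adjusted p-values of 1.29e-07, 0.0113 and 7.32e-04. It was at 1892 RPM in control 3-d replicate 1, against 160 to 732 RPM in the other 47 libraries. Without that library its changes were -0.92, -0.28 and -0.48 (edgeR adjusted p = 3.46e-08, 0.0396 and 0.00137). At middle and high dose miR-142-3p was at 0.27 and 0.39, miR-142-5p at 0.10 and 0.16, miR-223-3p at 0.21 and -0.06 and miR-342-3p at -0.19 and -0.11, none of them called. Their summed level was 2988 to 4518 RPM in the controls, 1851 to 5045 at low dose, 2287 to 6251 at middle dose and 2569 to 4714 at high dose. 

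Markers of resident liver cells also moved at low dose, where 28.6% of all tested miRNAs were called higher and 21.3% lower. Of 4 hepatocyte miRNAs, miR-122-5p (0.59) and miR-192-5p (0.42) were called higher and miR-122-3p (-0.52) lower there, and their summed level had a median of 236789 RPM in 11 controls (222703 to 254551) and 295434 at low dose (237484 to 319172). Without control 3-d replicate 1, miR-194-5p (-0.16) was also called lower at low dose, where 22.3% of all tested miRNAs were. At middle dose 1 of the 4, miR-122-3p, was called lower, against 13.3% (3 without that library, against 17.3%). At high dose none was called lower, against 6.64% (1 without that library, against 7.64%). Of 3 miRNAs of smooth muscle or stellate cells, miR-145-5p (-0.99) and miR-145-3p (-0.42) were called lower and miR-143-3p (0.28) higher at low dose, with a summed median of 41422 RPM in 11 controls (22941 to 46880) and 44117 at low dose (32572 to 49094). None of the 3 was called at the other doses (1 lower at each without control 3-d replicate 1, against 17.3% and 7.64%). Of 2 endothelial miRNAs none was called at any dose (1 lower at low and at middle dose without that library, against 22.3% and 17.3%). The part of blood, leukocytes or liver cells in the members' changes was not tested.

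Muscle is the other tissue rich in miR-486. Among 7 muscle miRNAs, miR-208a-3p had no read, and the defining miR-1-3p and miR-206-3p were at 0 RPM in the median library and at most 0.151 and 0.108 RPM in any of the 47. Only miR-133a-3p and miR-499-5p were tested, with medians of 4.48 and 24.7 RPM. The mean effect of miR-499-5p was called higher at each dose (0.38, 0.59 and 0.52 from low to high), against 28.6%, 23.3% and 21.6% of all tested miRNAs. That of miR-133a-3p was called lower at middle dose (-0.90), against 13.3%. These calls were the same without control 3-d replicate 1. The summed level of the 7 was 19.8 to 37.8 RPM in the controls and 19.7 to 47.4 RPM at the 3 doses, against 747 RPM or more for miR-486. Whether any miR-486 came from muscle was not tested.

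Among the other tested miRNAs, the 5 whose level over the 48 libraries was most like the mean of the members were miR-455-3p (Spearman's rho 0.62), miR-22-3p (0.60), miR-30c-1-3p (0.59), miR-30e-5p (0.58) and miR-122-3p (0.58). Without control 3-d replicate 1 they were miR-22-3p (0.64), miR-455-3p (0.62), miR-30e-5p (0.62), miR-193a-3p (0.61) and miR-122-3p (0.61), and miR-30c-1-3p ranked 8 (0.59). The members themselves had rho between 0.32 (miR-144-3p and miR-486) and 0.81 (miR-451-5p and miR-144-5p) over 47 libraries. These values are descriptions, and the libraries share treatment groups.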

How the data were processed

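Small RNA of liver from 48 rats was sequenced, and adaptor-trimmed reads with lengths from 18 to 25 bases were aligned by the authors with miRDeep2 (version not given in the sources used here) against release 21 of miRBase. They deposited raw counts, unnormalized and unfiltered, for each pair of mature miRNA and precursor. The submitters' processing notes also name FastQC and the build rn5. The authors' own comparisons (fold changes and p-values) were not used.

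Groups and replicate numbers were taken from the labels. Each member has 1 precursor, and where other mature miRNAs had more, the precursor entry holding most reads was taken. The filter on low counts (5 RPM or more in 3 or more libraries) left 301 of the 664 miRNAs with a read. Each condition was compared with its time point's controls by edgeR's quasi-likelihood F-test on those 6 libraries (version 4.0.16, R 4.3.3) after upper quartile scaling, with Benjamini-Hochberg adjustment. Mean dose effects, dose pairs, time differences and control differences were taken from 1 model over the 48 libraries together, and called on adjusted p-values. With 3 rats against 3 an exact permutation test of 1 miRNA cannot go below 0.1, so none was used. Ratios used a prior of 0.5 counts and, like within-group correlations, 100000 permutations within time points or groups.

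The miRNAs named are the 4 members, the other arm of their precursors, the marker lists and the 5 tested miRNAs with the highest Spearman's rho to the members' mean. These 5 were taken with all libraries and again without control 3-d replicate 1. The members and lists were chosen with earlier results of these data known. Within groups no pair of libraries agreed within sampling noise (chi-square per degree of freedom at least 96.1). Alternatives were TMM, DESeq2 size factors, library size alone, other filters, edgeR's exact test, DESeq2 1.42.0, pooled controls, a prior of 1 count, libraries left out in turn and, added after the data were seen, leaving out control 3-d replicate 1 throughout and a base composition covariate. The fits were tested on simulated data. Counting limits use 3 reads. Sequences are from RefSeq (GRCr8), in which 3 of the 4 members had an entry.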

Additional observations from a re-analysis of the deposited data

Results flagged for a closer look

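The effect of a dose differed between 2 time points, by a test of the difference itself in a fit of all 48 libraries, for 6 of 72 comparisons at an edgeR adjusted p-value below 0.05. At high dose, the effect at 7-d minus that at 3-d was -1.73 for miR-451-5p and -2.19 for miR-144-3p (edgeR adjusted p = 0.0455 and 0.0420), calls that were lost in 25 and 7 of the fits that left out a library. For miR-144-5p at high dose, the effect at 14-d minus that at 7-d was 1.95 (edgeR adjusted p = 0.0110). For miR-486, the differences from 3-d were 2.90 at low dose for 14-d, and 3.09 and 3.19 at high dose for 14-d and 28-d (edgeR adjusted p = 0.0283, 0.0108 and 0.0184). When control 3-d replicate 1 was left out, the change of miR-144-5p remained the 1 that was called, at 1.95 (edgeR adjusted p = 0.00723), and the other 5, which all take 3-d as reference, were not called.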

How the results depend on the processing

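The values below are log2 fold changes unless they are counts, and their causes were not tested. With 293331 reads, control 3-d replicate 1 limits miR-144-3p (4 reads) and miR-144-5p (12 reads) at 3-d. High dose changes at 14-d and 28-d lay near 0, so their sign depended on the settings. Under settings other than leaving out a single library, 149 summary values and 500 values of a member in a condition kept their direction and side of the threshold, while 38 of the latter lost a call, 23 gained 1 in the same direction and 22 changed direction, as did 9 summary values. Of the summary values, 5 more lost a call, 9 gained 1 and 11, which are counts, were marked as moved. With a library left out, 713 values of a member in a condition kept both, 70 lost a call, 13 gained 1 and 20 changed direction, as did 22 summary values. Of the summary values, 1060 kept both with a library left out, 31 lost a call, 10 gained 1 and 15 were marked as moved. No paired analysis was possible because the labels number the rats from 1 to 48 and no groups share a number.

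miR-486 at the 14-d high dose was at 0.0212 with TMM, 0.15 with library size alone and 0.0445 with at least 5 RPM required in every library, against -0.05 in the report. At the 28-d high dose it was at -0.00351 with DESeq2 size factors or the DESeq2 Wald test, -0.12 with no filter and -0.13 with the stricter filter, against 0.05. miR-451-5p was at 0.0650 at the 14-d high dose with library size alone, and at the 28-d high dose at -0.11 with no filter and -0.12 with the stricter filter. The dose comparisons called numbered 2 with TMM, with DESeq2 size factors, with no filter and with the stricter filter, and 3 with library size alone, against 1. With library size alone, miR-451-5p was called lower in 3 conditions, against 5, and its correlation with miR-486 was -0.0257. Its mean change at middle dose was no longer called with library size alone (-0.32) or with the stricter filter (-0.39). With no filter, the mean changes of miR-144-3p were -0.55, -0.59 and -0.0634 from low to high dose, the first 2 of them called, and the -0.50 of miR-144-5p at high dose was called, as was its -0.44 with the DESeq2 Wald test.

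With all 12 controls pooled, miR-144-3p was at -0.14 and -0.27 at the 3-d low and middle dose and 0.64 at the 28-d high dose, and miR-486 at -1.08 at the 14-d low dose and -1.47 at the 28-d high dose. miR-144-3p was then called lower in 3 conditions and miR-486 in 1, and with adjusted p-values each in 3, against 5. Without the 3-d time point the mean changes of miR-144-3p were -0.84, -0.85 (both called) and -0.27, and those of miR-486 at low and high dose, -0.18 and -0.38, were not called.

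The base composition covariate was chosen after seeing the data. With it, miR-144-3p was at -0.12 at the 3-d low dose and 0.00474 at the 28-d high dose, miR-451-5p at -0.0603 at the 3-d high dose, and miR-486 at 0.37 and 0.15 at the 3-d and 7-d low dose and 0.0240 and -0.0402 at the 14-d and 28-d high dose, with 3 conditions called lower. The mean changes of miR-144-3p were -0.79, -0.70 (both called) and -0.19, and those of miR-486 at low and high dose, 0.0972 and -0.29, were not called. With the slope subtracted from the ratios, differences were 0.18 for miR-144-5p to miR-144-3p at low dose, 0.11 for miR-451-5p to miR-144-3p at middle dose, and 0.86 (called) and 0.0429 for miR-486 to miR-451-5p at low and high dose. A prior of 1 count moved the middle dose ratio of miR-451-5p to miR-144-3p to 0.00975.

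With libraries left out in turn, the dose comparisons called numbered 0 to 4 (0 without middle 14-d replicate 31), the time comparisons 1 to 13 (13 without control 3-d replicate 3) and the control comparisons 1 to 5. The conditions in which miR-486 was called lower numbered 3 to 6. When control 3-d replicate 1 was the library left out, these counts were 4, 1, 1 and 3 in that order. Mean changes ran from -0.56 to -0.38, -0.57 to -0.42 and -0.0590 to 0.20 for miR-144-3p from low to high dose, from -0.48 to -0.27 for miR-144-5p at high dose, from -0.58 to -0.35 for miR-451-5p at middle dose (not called in 29 of these fits), and from -0.92 to -0.15 and -1.20 to -0.43 for miR-486 at low and high dose, where only leaving out control 3-d replicate 1 ended the call. Ratio differences ran from -0.13 to 0.0394 for miR-144-5p to miR-144-3p at low dose, from -0.0796 to 0.0924 for miR-451-5p to miR-144-3p at middle dose and from -0.18 to 0.53 for miR-486 to miR-451-5p at low dose. Correlations with miR-486 without that library were 0.64 for miR-451-5p, 0.69 for miR-144-5p and 0.32 for miR-144-3p. At 3-d, miR-144-5p ran from -0.29 to 0.00546 at low, -0.30 to 0.00278 at middle and -0.49 to 0.25 at high dose, miR-451-5p from -0.62 to 0.26 at low dose and miR-486 from -3.08 to 0.0527 at middle dose. At the 14-d high dose the ranges were -0.45 to 0.17 for miR-451-5p, -0.37 to 0.24 for miR-486, -0.28 to 0.78 for miR-144-3p and -0.0324 to 0.74 for miR-144-5p, and at the 28-d high dose -0.12 to 0.30, -0.16 to 0.22, -0.22 to 0.21 and -0.42 to 0.12 in that order.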
